A study of Salmo salar with 189 samples.

Results

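Clock gene transcripts of the optic tectum (OT), the part of the fish midbrain that receives most of the input from the retina, were compared between Atlantic salmon kept in constant light (LL) and Atlantic salmon kept in constant darkness (DD). The comparison took every OT sample labelled LL or DD at CT9, CT13, CT17, CT21, CT25 and CT29. That gave 36 of the 63 OT samples and of 189 samples in the series, with 3 fish at each time in each light condition, or 18 against 18. CT is circadian time in hours, counted from the last lights on in LL and from the matching subjective lights on in DD. The members of the comparison are the 41 clock transcripts that the study lists as expressed in the OT, and all 41 are accounted for below. The question asked was which transcripts differed between light and darkness at all times of day and which differed at some circadian times and not at others.

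All fish were pre-smolts of about 45 g of a commercial strain with no genetic manipulation, raised in constant light and then held for 8 weeks on a short day. The labels give that day as 8 h of light and 16 h of dark and the methods give a shorter light phase, and CT9 lies after dusk in both. Water was held at 14 °C and food was withheld from 48 h before the first sample. Fish of the LL group stayed under light after their last lights on, so they had been lit without a break for 9 h at CT9 and 29 h at CT29. Fish of the DD group stayed in darkness through that same subjective day and were taken under red light. By their codes the LL fish (A33 to A55) and the DD fish (B9 to B32) came from different arms, and the methods describe a pair of tanks without saying which fish each held, so if each arm had a tank of its own, light and tank cannot be told apart.

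The vertebrate clock is a feedback loop in which Clock and Arntl1 (Bmal1) switch on the Per and Cry genes, whose proteins then repress Clock and Arntl1. A further loop runs through the Nr1d (Rev-erb) repressors and the Ror activators, which act on Arntl1, and the PAR bZIP factors Tef, Hlf and Dbp pass the rhythm on to output genes. In zebrafish, light itself induces per2, a cry1 gene and tef, and the light response of per2 requires Tef. Salmonids carry many clock genes as pairs left by their own genome duplication (Ss4R pairs), and each copy is named here by its gene and chromosome.

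The transcripts were counted with a NanoString CodeSet, in which fluorescent barcodes bind to a stretch of each mRNA without amplification. The 100-base targets of the Per2 pair and of the Per1 and Per3 rows that changed most are shown because the results turn on them. Each is given 5′ to 3′ in lower case with no base marked, with its gene ID and its position in the transcript.
Per2-Ch14 (gene ID 100301980, bases 4700 to 4799): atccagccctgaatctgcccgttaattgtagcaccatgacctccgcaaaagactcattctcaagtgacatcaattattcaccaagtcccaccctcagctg
Per2-Ch3 (gene ID 106599551, bases 4240 to 4339): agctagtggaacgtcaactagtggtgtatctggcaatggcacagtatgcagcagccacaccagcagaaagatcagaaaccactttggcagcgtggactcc
Per1-Ch11 (gene ID 106563389, bases 3723 to 3822): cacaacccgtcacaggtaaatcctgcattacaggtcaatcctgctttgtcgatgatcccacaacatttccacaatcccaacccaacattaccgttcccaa
Per3-Ch22 (gene ID 106583133, bases 3107 to 3206): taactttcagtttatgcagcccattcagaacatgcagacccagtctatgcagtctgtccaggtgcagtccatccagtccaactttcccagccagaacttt
Among the 46 targets of the CodeSet, the longest run of bases that any target shared with another was between 8 and 12 bases (median 10). The targets of the Per2 copies lie at different positions of their transcripts, so this does not show that a target is missing from the other copy, and whether a probe binds both copies of a pair was not tested.

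The values are barcode counts normalised to spike-in controls, called signal, and differences are LL minus DD on the log2(signal + 1) scale, where 1 is a doubling. Total signal ran from 28640 to 42187 in the LL samples (median 35568) and from 29571 to 42944 in the DD samples (median 33989). At CT21 the totals did not overlap, at 34178 to 42187 in LL (the highest from fish A47) and 29571 to 33279 in DD. Because the spike-in scale does not remove differences in the amount of clock RNA per sample, each result was also computed after scaling every sample to the geometric mean of its 41 transcripts, and after centring it on its median transcript, a setting chosen after seeing the data. Scaling by the geometric mean lowered every level difference by 0.14. The CodeSet holds clock genes alone, so the identity of the tissue could not be checked against markers, and in bulk tissue fewer cells of a type and less RNA per cell cannot be told apart.

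Ratios of duplicate copies stepped between sets of samples. The log2 ratio of Rora-Ch10 to Rora-Ch16 lay between 1.01 and 1.41 in the 12 earlier LL samples and between 0.58 and 0.77 in the 6 later ones, with no overlap. In DD the same ratio lay between 0.84 and 1.08 early and between 0.92 and 1.07 late, but it lay between 0.56 and 0.65 in the 6 DD samples of CT1 and CT5, which are not part of the comparison and lay below all later DD samples. Steps were thus seen in both light conditions. Of 15 Ss4R pairs, 3 (Rora, Nr1d2-Ch2 with Nr1d2-Ch5, and Arntl1-Ch10 with Arntl1-Ch16) had ratios that did not overlap between the earlier and later LL samples and 0 did so in DD over the same times. For the Arntl1 pair the LL ranges only just missed each other, and its median moved more in DD (by 0.24) than in LL (by 0.15). Hybridisation runs are not given in the sources used here. Between these sets of samples a run, circadian time and time in light thus cannot be told apart. Results were therefore also computed within CT9 to CT21 and within CT25 and CT29, settings chosen after seeing the data. These settings do not separate light from run. In the numbering of the sample titles all compared LL samples come before all compared DD samples. If runs followed that numbering, light and run cannot be told apart either.

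Averaged over the 6 times, more clock transcripts were higher in LL than lower on the spike-in scale, and the Per2 pair stood far above the rest. Both Per2 copies, all 3 transcripts of Cry3 and Cry4, all 5 Nr1d repressors and both Cry1 copies were higher in LL, whereas Tef-Ch3, Tef-Ch6, Per3-Ch22, Per1-Ch11 and Arntl1-Ch16 were lower. Of 41 transcripts, 23 differed (56.1%), 18 of them higher in LL (43.9%) and 5 lower (12.2%), at an adjusted p under 0.05 in limma. After scaling by the geometric mean the split was 9 higher and 19 lower, and after centring on the median transcript it was 12 higher and 13 lower. The median difference over all transcripts was 0.06, -0.08 and -0.03 in the same order. The 14 transcripts called with the same sign on all 3 scales were both Per2 copies, both Cry3 copies, Cry2-Ch10, Cry1-Ch16, Nr1d2-Ch27, Tef-Ch1 and Tef-Ch28 on the higher side, and Tef-Ch3, Tef-Ch6, Per3-Ch22, Per1-Ch11 and Arntl1-Ch16 on the lower side. Within CT9 to CT21 alone 19 transcripts were called and within CT25 and CT29 alone 15, with 10 called in both and 10 of those 10 of the same sign.

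Per2, a repressor of the core loop, showed the largest differences. Per2-Ch14 signal ran from 107 to 474 (median 279.5) in the 18 LL fish and from 52.9 to 148 (median 93.9) in the 18 DD fish. The level difference was 1.53 (SE 0.13, adjusted p = 1.26e-11), a 2.89-fold higher level in LL. Per2-Ch3 signal ran from 97.1 to 233 (median 156) in LL and from 54.4 to 104 (median 81.8) in DD, and its level difference was 0.96 (SE 0.07, adjusted p = 2.55e-12), or 1.94-fold. Both ranges overlapped over the day as a whole, whereas within single times they mostly did not.

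At CT21, where both copies differed most on the spike-in scale, Per2-Ch14 signal was 274, 288 and 408 in the LL fish and 73.7, 78.6 and 68.5 in the DD fish. Per2-Ch3 signal at the same time was 143, 233 and 162 in LL and 54.4, 75.4 and 73.0 in DD. Every lit fish was well above every dark fish for both copies. The differences were 2.10 (SE 0.32, adjusted p = 1.88e-05) for Per2-Ch14 and 1.38 (SE 0.18, adjusted p = 3.94e-06) for Per2-Ch3, with p-values here and at other single times adjusted over all 246 combinations of transcript and time. On the rescaled measures Per2-Ch14 still differed most at CT21 (1.68 and 1.77). Per2-Ch3 differed most at CT13 there (1.02 and 1.09), beside 0.96 and 1.05 at CT21.

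The Per2 difference was smallest at CT29, the last time sampled. Per2-Ch14 signal was then 107, 160.4 and 259 in LL and 71.2, 134 and 106 in DD, and Per2-Ch3 signal was 97.1, 112 and 149 in LL and 82.9, 95.2 and 85.2 in DD. The groups overlapped for Per2-Ch14 and stood just apart for Per2-Ch3, with differences of 0.71 (SE 0.32, adjusted p = 0.123) and 0.42 (SE 0.18, adjusted p = 0.0981). Across the 6 times, all 3 LL fish were above all 3 DD fish at 6 times for Per2-Ch3 and at 5 for Per2-Ch14. The test of whether the difference changed with time passed for Per2-Ch3 (adjusted p = 0.0397) and not for Per2-Ch14 (adjusted p = 0.233). The Per2-Ch3 call was lost when any of 18 of the 36 fish was left out. In the ratio of the Per2 copies the change with time did not pass (adjusted p = 0.696), so a different time course of the copies was not shown. Within CT9 to CT21 the level differences were 1.77 and 1.04 for Per2-Ch14 and Per2-Ch3, and within CT25 and CT29 they were 1.06 and 0.80.

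In OT samples of 18 fish of the same arm as LL taken earlier, at ZT9 to ZT21 of the light-dark cycle (ZT counts hours from lights on) and at CT1 and CT5, Per2-Ch14 signal ran from 68.8 to 262 (mean 137) and Per2-Ch3 signal from 67.0 to 167 (mean 113). The means in LL were 279 and 161, and those in DD were 94.5 and 81.8. Both earlier means thus lay between those of the constant conditions. These samples were not part of the tests.

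**Figure D1:**
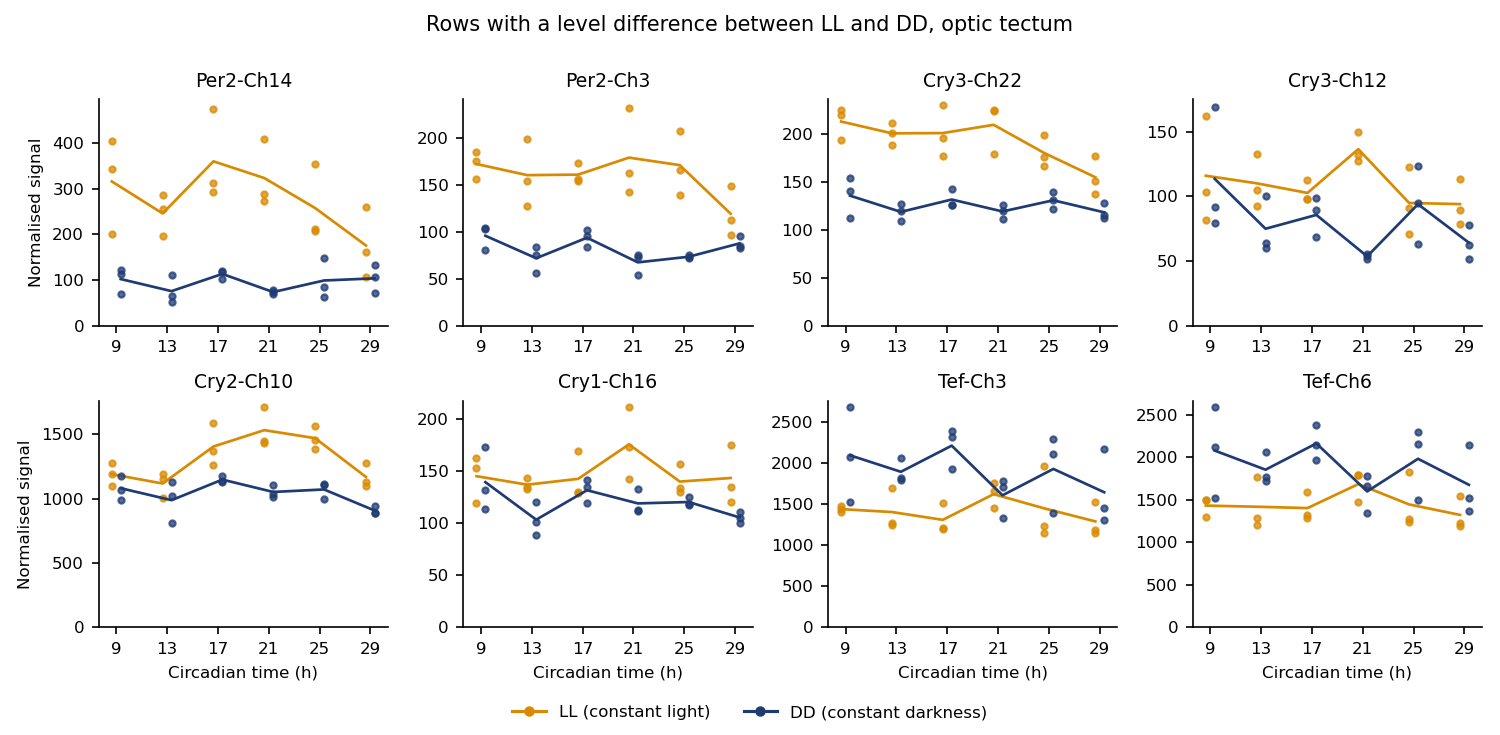
Signal of 8 transcripts with a level difference in each OT sample (points, vertical axis from 0) against circadian time in hours, with lines through the means of 3 fish, orange for LL and blue for DD. Per2-Ch3 and Cry3-Ch22 points of LL lie above all DD points at each of the 6 times, whereas Tef-Ch3 and Tef-Ch6 are lower in LL at all times except CT21.

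Most cryptochromes were higher in LL as well on the spike-in scale. Cry3-Ch22 signal ran from 137 to 231 (median 195) in LL and from 109.9 to 154 (median 126) in DD, with a level difference of 0.61 (SE 0.05, adjusted p = 4.62e-12), or 1.52-fold. It was the transcript with the steadiest separation: all 3 LL fish exceeded all 3 DD fish at each of 6 times, and the difference passed the test at all 6. On the spike-in scale it was largest at CT21 (179.6, 225 and 226 in LL, 111, 120.3 and 126 in DD) and smallest at CT29 (137, 151 and 177 in LL, 128, 112 and 115 in DD). On the 2 rescaled measures its difference also changed with time (adjusted p = 0.0156 and 0.012), which it did not on the spike-in scale (adjusted p = 0.267). The rescaled differences were largest at CT9 (0.71 and 0.75), beside 0.39 and 0.48 at CT21 and 0.27 and 0.29 at CT29.

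The difference of its duplicate Cry3-Ch12 ran from 0.03 to 1.33 over the day on the spike-in scale. At CT21 Cry3-Ch12 signal was 128, 132 and 150.1 in LL and 55.3, 51.3 and 54.3 in DD, with no overlap and a difference of 1.33 (SE 0.26, adjusted p = 0.000333). At CT9 it was 104, 82.1 and 162 in LL and 79.7, 91.7 and 169 in DD, which overlapped almost fully, and the difference was 0.05. At CT25 the difference was again small, at 0.03. Its level difference was 0.47 (SE 0.11, adjusted p = 0.000391), and its change with time passed the test narrowly (adjusted p = 0.0417) and was lost when any of 22 of the 36 fish was left out. On the rescaled measures the change of Cry3-Ch12 with time did not pass (adjusted p = 0.108 and 0.107). In the ratio of the 2 copies neither the level (adjusted p = 0.202) nor the change with time (adjusted p = 0.0962) passed, so a different time course of the copies was not shown.

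Cry2-Ch10 and the Cry1 pair are repressors of Clock and Arntl1. Cry2-Ch10 signal ran from 1004 to 1715 (median 1277) in LL and from 808 to 1180.01 (median 1054) in DD, a level difference of 0.33 (SE 0.05, adjusted p = 4.48e-07). On the spike-in scale its differences were small at CT9 (0.14) and CT13 (0.19), and from CT17 on all LL fish were above all DD fish. After centring on the median transcript they were 0.23 at CT9, 0.14 at CT13 and 0.28 at CT29. The change of the Cry2-Ch10 difference with time did not pass on any scale (adjusted p = 0.257, 0.466 and 0.785). Cry1-Ch16 signal ran from 119 to 211 (median 139) in LL and from 88.4 to 173 (median 118) in DD, a level difference of 0.29 (SE 0.06, adjusted p = 0.000271), and that of Cry1-Ch10 was 0.17 (SE 0.05, adjusted p = 0.00556). Cry1-Ch10 signal ran from 328 to 606 (median 433) in LL and from 327 to 457 (median 407) in DD, again with overlap. On the geometric mean scale Cry1-Ch16 stayed past the threshold (0.15) and Cry1-Ch10 did not (0.03). Cry4-Ch13 was higher by 0.19 (SE 0.08, adjusted p = 0.0485), a call that a permutation test of the labels within times did not give (adjusted p = 0.0841) and that leaving out 1 fish ended in 23 of 36 cases. The Cry4-Ch13 difference was 0.05 (adjusted p = 0.549) on the geometric mean scale and 0.10 (adjusted p = 0.275) after centring on the median transcript. Cry2-Ch26 had no level difference on the spike-in scale (0.00). It was lower in LL on the rescaled measures (-0.142, adjusted p = 0.000576, and -0.095, adjusted p = 0.0144). It appears below among the transcripts that changed with time.

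The Tef genes, PAR bZIP activators, split by pair. Tef-Ch3 signal ran from 1147 to 1959 (median 1422) in LL and from 1308 to 2682 (median 1875) in DD, and Tef-Ch6 signal ran from 1190.4 to 1823 (median 1397) in LL and from 1346 to 2593 (median 1874) in DD. Both copies were lower in LL, by -0.41 (SE 0.08, adjusted p = 0.000229) for Tef-Ch3 and by -0.37 (SE 0.08, adjusted p = 0.000229) for Tef-Ch6, which is 0.755-fold and 0.772-fold the level in DD. At CT17 Tef-Ch3 signal was 1514, 1203 and 1209 in LL and 2315, 2392 and 1930.3 in DD, fully apart, and this was the single time at which either copy passed the test on the spike-in scale. At CT21 the differences were 0.02 and 0.08. After scaling by the geometric mean they were -0.39 and -0.33, and both copies were lower in LL at all 6 times. The copies of the other pair were higher in LL, with level differences of 0.28 (SE 0.06, adjusted p = 0.000116) for Tef-Ch28 and 0.23 (SE 0.05, adjusted p = 0.000271) for Tef-Ch1. Tef-Ch28 signal ran from 175 to 274 (median 224) in LL and from 151 to 207 (median 183) in DD, and Tef-Ch1 signal ran from 3817 to 5654 (median 4714) in LL and from 3449 to 5041 (median 3968) in DD. The ranges overlapped for both, and the Tef-Ch1 difference was largest at CT25 (0.48 (SE 0.12, adjusted p = 0.00432)).

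The salmon counterparts of the genes that light induces in zebrafish are 8 transcripts here (Per2, Cry1 and Tef copies). Of these, 6 were higher in LL on the spike-in scale, 2 were lower and 0 were not called. Over all transcripts 56.1% were called, 43.9% higher and 12.2% lower. Cry1-Ch10 did not pass on either rescaled measure (0.03 and 0.08), and the others kept their sign and call on both. Their median difference on the spike-in scale was 0.25, beside 0.06 over all 41. The 2 on the lower side were Tef-Ch3 and Tef-Ch6.

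By role, the Nr1d repressors were higher in LL in 5 of 5 cases, with level differences from 0.18 to 0.32, beside 43.9% higher and 12.2% lower over all 41 transcripts. Nr1d2-Ch27 was the largest of them at 0.32 (SE 0.05, adjusted p = 5.53e-06), and on the geometric mean scale it was the single one that passed the test (0.18). Among the activators Clock and Arntl1, 2 of 6 transcripts were higher on the spike-in scale (Arntl1-Ch10, 0.17, and Clock-Ch23, 0.12), 1 was lower (Arntl1-Ch16, -0.14) and 3 did not pass. Neither of the 2 passed on the rescaled measures. Arntl1-Ch16, Arntl1-Ch26 and Clock-Ch10 were past the threshold on the lower side on both, and Arntl1-Ch11 on the geometric mean scale alone. The 6 Ror activators lay between -0.04 and 0.05 and none of them passed, and neither did any of the 3 casein kinases, enzymes that phosphorylate Per proteins, which lay between -0.01 and 0.07. On the geometric mean scale 4 of the 6 Ror transcripts and all 3 casein kinases were past the threshold on the lower side. Of the other PAR bZIP factors, Hlf-Ch1 was higher by 0.23 (SE 0.06, adjusted p = 0.00339) and Hlf-Ch28, Dbp-Ch14 and Dbp-Ch5-1 did not pass. On the geometric mean scale Hlf-Ch1 did not pass (0.09, adjusted p = 0.13), and after median centring it did (0.14, adjusted p = 0.0236). Dbp-Ch5-1 was lower in LL on both rescaled measures (-0.17 and -0.12), and Dbp-Ch14 on the geometric mean scale alone (-0.08, adjusted p = 0.0169).

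Transcripts were then sorted by whether the difference held at all times. On the spike-in scale 10 of 41 had a level difference of 1 sign at all 6 times with no call of change over time. Of these, 9 were higher in LL and 1 lower. The 9 were Per2-Ch14, Cry3-Ch22, Cry2-Ch10, Cry1-Ch16, Cry1-Ch10, Tef-Ch28, Hlf-Ch1, Arntl1-Ch10 and Clock-Ch23, and the lower one was Arntl1-Ch16. A p that misses the threshold does not show that a difference was constant. Per2-Ch14, Cry2-Ch10 and Cry1-Ch16 were in this class on all 3 scales. On the geometric mean scale they were its only members higher in LL. Its lower members there were Tef-Ch3, Tef-Ch6, Per3-Ch22, Arntl1-Ch26, Clock-Ch10, Rora-Ch26-1 and Rorb-Ch20. After median centring the higher side also held Nr1d2-Ch27, Tef-Ch1 and Tef-Ch28. The lower side then held Tef-Ch3, Tef-Ch6, Per3-Ch22, Arntl1-Ch16, Arntl1-Ch26 and Rorb-Ch20. The excess of higher members was thus seen on the spike-in scale alone. All 10 kept their sign both within CT9 to CT21 and within CT25 and CT29, with 9 past the threshold in the earlier times, 5 in the later times and 5 in both. Clock-Ch23 turned to -0.02 on the geometric mean scale and lost its call when any of 6 fish was left out.

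A second class of 13 transcripts (31.7%) had differences that changed with time: 11 with both signs over the day, and Per2-Ch3 and Cry3-Ch12 with 1 sign. A further 4 had a level difference of mixed signs with no call of change over time (Tef-Ch1, Cry4-Ch13, Tef-Ch3 and Tef-Ch6), and 14 passed neither test. On both rescaled measures Tef-Ch3, Tef-Ch6, Per3-Ch22, Arntl1-Ch26 and Rorb-Ch20 were instead shifted at all times, lower in LL at all 6. The 13 adjusted p-values lay close to the threshold, from 0.0251 to 0.0417, and 15 transcripts had an unadjusted p under 0.05. Without fish A47 (LL at CT21) 0 of 41 were called, with a lowest adjusted p of 0.0627 and 14 at an unadjusted p under 0.05. The count fell by more than 1.5 times without A33 (3), A34 (5) or A35 (8) of LL at CT9, A43 of LL at CT17 (6), A46 of LL at CT21 (6), B10 (4) or B11 (4) of DD at CT9, B21 of DD at CT21 (2) or B29 of DD at CT29 (8). Cry2-Ch26, Dbp-Ch5-1, Per1-Ch11, Per1-Ch4 and Per2-Ch3 were called on all 3 scales. On the geometric mean scale 7 of the 13 were called and after centring on the median transcript 5. Over all 41 transcripts 13 and 10 were called on these scales. Rora-Ch10 had the smallest adjusted p on each (1e-05 and 8.93e-06). Rora-Ch16 and CKIe-Ch3 were also called on both, and none of these passed on the spike-in scale. The Rora ratio was among those that stepped between the sets of LL samples. On the spike-in scale 12 of the 13, all except Nr1d2-Ch14, were also called in 1 test that pooled changes within the earlier and within the later samples. Change within the later samples alone was not tested.

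**Figure D2:**
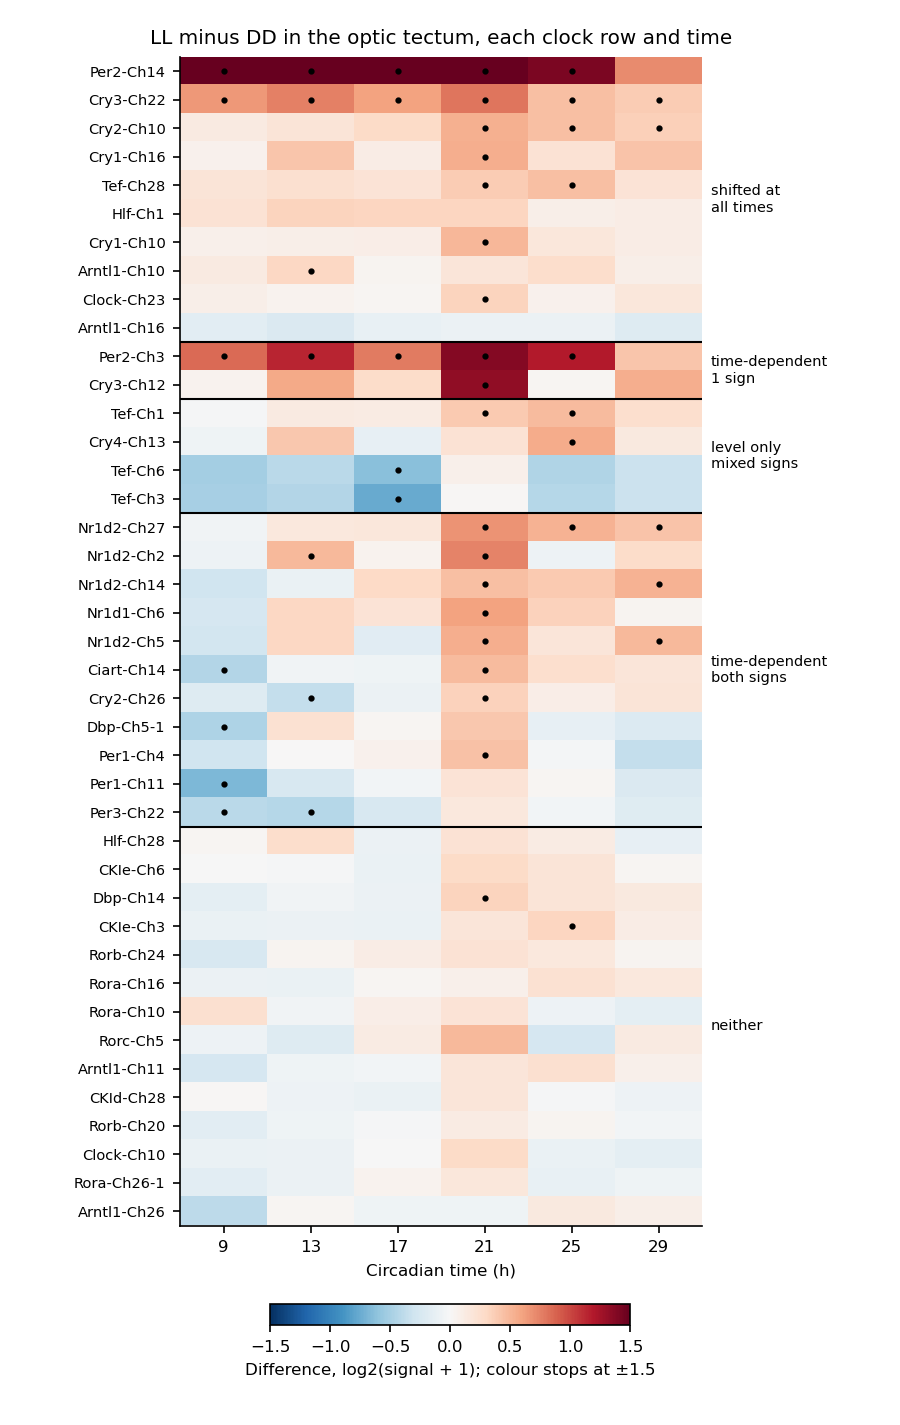
LL minus DD on the log2(signal + 1) scale (colour, red for higher in LL and blue for lower) for the 41 transcripts (rows, grouped by class) at 6 circadian times in hours (columns), with a dot where the adjusted p is under 0.05. The column at CT21 is the one with most dots (19, all higher in LL), and blue cells with dots are confined to CT9, CT13 and CT17.

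By single time, 52 of the 246 differences passed the test (21.1%). At CT9, 3 transcripts were higher in LL and 4 lower, at CT13 5 and 2, and at CT17 3 and 2. At CT21 19 were higher and 0 lower, at CT25 9 and 0, and at CT29 5 and 0. The median difference over the 41 was -0.09 at CT9, 0.03 at CT13, 0.03 at CT17, 0.33 at CT21, 0.16 at CT25 and 0.12 at CT29, so at CT21 most transcripts were higher in LL, 39 of 41 of them by value. On the geometric mean scale the calls at CT21 were 5 higher and 10 lower and those over all times numbered 86, and after centring on the median transcript they were 7 and 5 of 76. Of the 19 transcripts called higher at CT21, 5 were so on all 3 scales, namely both Per2 copies, both Cry3 copies and Nr1d2-Ch27.

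Per1, a repressor that Clock and Arntl1 activate, was among the transcripts whose difference changed most with time. Per1-Ch11 signal at CT9 was 505, 539 and 549 in LL and 712, 879 and 980.2 in DD, with every LL fish below every DD fish and a difference of -0.68 (SE 0.13, adjusted p = 0.000183). At CT17 it was 907, 1105 and 949 in LL and 1025, 1032 and 968 in DD, at CT21 707, 796 and 899 in LL and 705, 732 and 636 in DD. The groups overlapped at both of these times, with differences of -0.04 and 0.21. On both rescaled measures Per1-Ch11 was lower in LL at all 6 times, with -0.21 (adjusted p = 0.0131) at CT21 on the geometric mean scale. The change with time had an adjusted p = 0.0251, and the level difference was -0.16 (SE 0.05, adjusted p = 0.0102), which the permutation test did not call (adjusted p = 0.0612).

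Its duplicate Per1-Ch4 ran from -0.30 at CT9 to 0.44 (SE 0.13, adjusted p = 0.0187) at CT21 and -0.36 at CT29. At CT21 its signal was 800.2, 1074 and 1137 in LL and 756, 710.4 and 722 in DD, all LL fish above all DD fish, and at CT29 426, 506 and 568 in LL and 583, 716 and 619 in DD, all LL fish below. The difference at CT21 fell to 0.03 (adjusted p = 0.772) on the geometric mean scale and to 0.12 (adjusted p = 0.26) after centring on the median transcript, and the one at CT29 passed on both (-0.47 and -0.45). The level difference of Per1-Ch4 did not pass on the spike-in scale (-0.03) and was past the threshold on the others (-0.17 and -0.13). Its change with time had an adjusted p = 0.0252 on the spike-in scale and passed on the others too.

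On the spike-in scale Per3-Ch22, the Per3 copy measured, was lower in LL early and not late. Its signal was 464, 435 and 423 in LL and 540.3, 645 and 573 in DD at CT9, and 349, 407 and 389 in LL and 477, 536 and 533 in DD at CT13. All LL fish were below all DD fish at CT9, CT13 and CT17, and the differences passed at CT9 (-0.41) and CT13 (-0.43). At CT21 the sign turned (0.16) with overlapping values of 511, 528 and 549 in LL and 449, 550.1 and 433 in DD. The change with time had an adjusted p = 0.0252 and did not pass on the rescaled measures (0.197 and 0.284), where the level difference did (-0.33 and -0.29).

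On the spike-in scale all 5 Nr1d repressors changed with time, beside 31.7% of all transcripts. On the geometric mean scale 2 of the 5 did so (Nr1d2-Ch27 and Nr1d2-Ch5), and after centring on the median transcript 0 did, with adjusted p-values from 0.0524 to 0.156. Nr1d2-Ch27 signal at CT9 was 515, 543 and 596 in LL and 483, 602 and 644 in DD, at CT21 808, 992 and 971 in LL and 523, 685 and 529 in DD. The groups overlapped at CT9 (-0.06) and did not at CT17 and later, with 0.68 (SE 0.12, adjusted p = 0.000183) at CT21. Nr1d1-Ch6 signal at CT21 was 182, 197 and 182 in LL and 119, 127 and 122 in DD, the only time at which it passed (0.60 (SE 0.15, adjusted p = 0.00299)).

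Nr1d2-Ch14 differed most at CT29, with 125, 122 and 129 in LL and 86.8, 89.5 and 84.1 in DD (0.52 (SE 0.16, adjusted p = 0.0206)) and no overlap. Nr1d2-Ch2 at CT21 had 983, 1125 and 1269 in LL and 582, 662 and 770.5 in DD (0.75 (SE 0.17, adjusted p = 0.00228)), and Nr1d2-Ch5 had 732, 797 and 958 in LL and 503, 573 and 621 in DD (0.55 (SE 0.17, adjusted p = 0.0224)). Of the 5 repressors, Nr1d2-Ch27 was past the threshold at CT21 on all 3 scales, Nr1d2-Ch2 on the spike-in and median scales (0.42 on the latter), and the other 3 on the spike-in scale alone. The Nr1d2-Ch2 and Nr1d2-Ch5 groups stood fully apart at CT21, whereas at CT9 their differences were -0.07 and -0.27. The level difference of Nr1d2-Ch5 was not called by the permutation test (adjusted p = 0.0912) or without any of 7 fish.

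Cry2-Ch26 and Ciart-Ch14, both repressors of Clock and Arntl1, went from lower to higher in LL on the spike-in scale. Cry2-Ch26 signal was 671, 713 and 671 in LL and 808, 939 and 889 in DD at CT13 (-0.36 (SE 0.11, adjusted p = 0.0227)), and 971, 1072 and 1244 in LL and 879.7, 957 and 754 in DD at CT21 (0.34 (SE 0.11, adjusted p = 0.0291)). Both times were without overlap and opposite in sign, but at CT21 the difference was -0.07 (adjusted p = 0.537) on the geometric mean scale and 0.02 (adjusted p = 0.918) after centring on the median transcript, whereas at CT13 it passed on both (-0.48 and -0.41). Ciart-Ch14 signal was 283, 298 and 325 in LL and 339, 386 and 522 in DD at CT9 (-0.44 (SE 0.16, adjusted p = 0.0499)), and 423, 459 and 566 in LL and 344, 321 and 367 in DD at CT21 (0.48 (SE 0.16, adjusted p = 0.0332)). These too were apart at both times, but at CT21 the difference of Ciart-Ch14 was 0.07 (adjusted p = 0.691) and 0.15 (adjusted p = 0.336) on the rescaled measures, and its change with time did not pass there (adjusted p = 0.108 and 0.156). Dbp-Ch5-1 was the single PAR bZIP factor in this class, at -0.47 (SE 0.16, adjusted p = 0.0413) at CT9, with all LL fish below all DD fish.

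**Figure D3:**
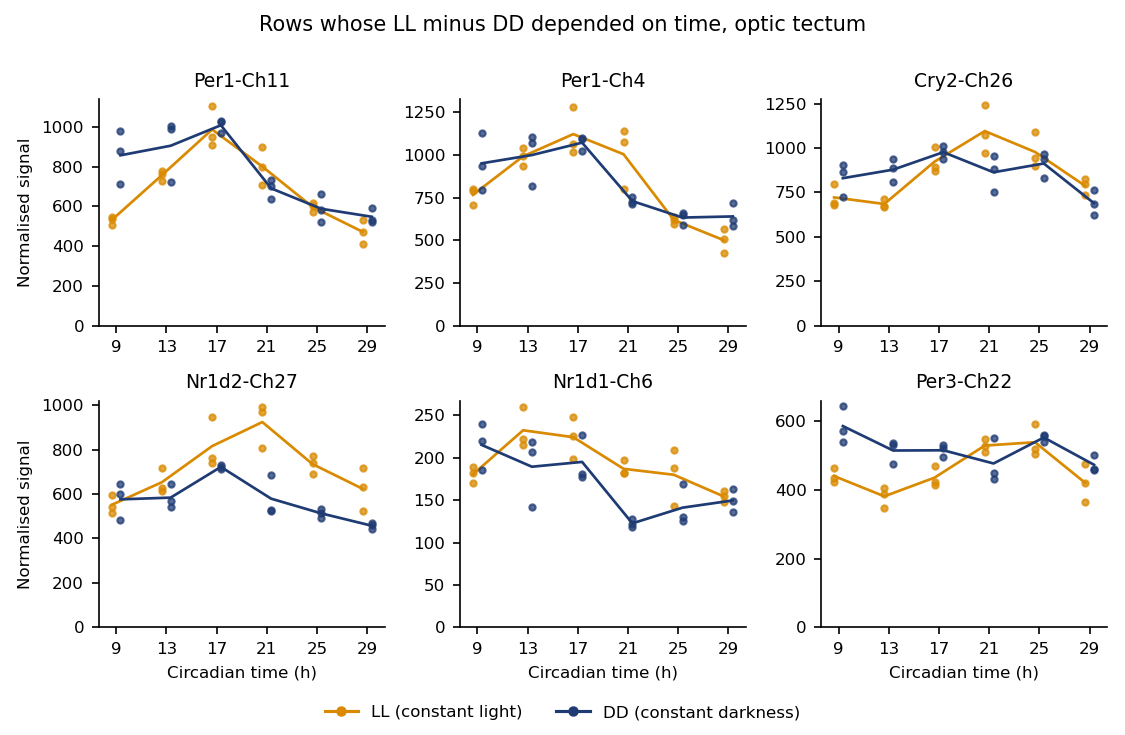
Signal of 6 transcripts whose difference changed with time, in each OT sample (points, vertical axis from 0) against circadian time in hours, with lines through the means of 3 fish, orange for LL and blue for DD. The Per1-Ch11 curve of LL starts below that of DD at CT9, comes close to it at CT17 and lies above it at CT21.

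A 24 h curve was fitted to each light condition to place the peaks. The 24 h component of LL minus DD passed the test in 12 of 41 transcripts (29.3%), and 14 had an unadjusted p under 0.05. Peak times were compared where the amplitude was at least 3 times its SE in both LL and DD, which held for 10 transcripts. The peak was later in LL in 9 of the 10, with a median of 3.08 h and a range from -0.01 to 4.22 h, and the 95% interval lay above 0 in 7 and below 0 in 0. Per1-Ch11 peaked at CT14.5 in DD and CT17.5 in LL, later by 3.01 h (95% interval 1.81 to 4.22). The other 6 were Cry2-Ch26 (4.22 h, 1.87 to 6.56), Nr1d2-Ch27 (4.06 h), Nr1d1-Ch6 (3.96 h), Dbp-Ch5-1 (3.19 h), Ciart-Ch14 (3.14 h) and Per1-Ch4 (2.39 h, 1.12 to 3.66). All 7 were among the 12 called in the 24 h component on the spike-in scale. On the rescaled measures that component did not pass for Ciart-Ch14 (adjusted p = 0.0637 and 0.105) or Nr1d1-Ch6 (0.119 and 0.0968). It passed on both for Per1-Ch11, Per1-Ch4, Cry2-Ch26, Nr1d2-Ch27 and Dbp-Ch5-1. Among the rest of the 12, CKIe-Ch3 passed on both, Tef-Ch1 on the geometric mean scale alone, and Per3-Ch22, Dbp-Ch14 and Nr1d2-Ch14 on neither.

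Arntl1-Ch10 (-0.01 h), Clock-Ch23 (0.66 h) and Hlf-Ch28 (0.48 h) had intervals that spanned 0. The fitted peak of Arntl1-Ch10, an activator, was at CT7.13 in LL and CT7.15 in DD, outside the sampled CT9 to CT29. No other Arntl1 copy met the amplitude limit on the spike-in scale. After centring on the median transcript 17 transcripts met the amplitude limit, of which 12 peaked later in LL and 5 earlier, with the interval above 0 in 10 and below 0 in 1. The largest of the 10 was Rora-Ch10 (8.35 h, 5.91 to 10.8), and the 1 below 0 was Cry3-Ch22 (-10.3 h, -13.5 to -7.03). Clock-Ch23 and Hlf-Ch28 turned to -1.61 and -1.66 h, with intervals across 0, and Arntl1-Ch10 moved to 2.02 h (0.50 to 3.54). The 7 transcripts with intervals above 0 on the spike-in scale kept them above 0, from 1.29 h (Per1-Ch4) to 3.17 h (Nr1d1-Ch6), and that of Per1-Ch11 was 1.90 h (1.02 to 2.79). With a step allowed between CT21 and CT25 in each light condition, 7 transcripts were called in the 24 h component and 4 kept amplitudes of 3 SE in both. These were Per1-Ch11 (2.84 h), Per1-Ch4 (3.31 h), Nr1d1-Ch6 (3.51 h) and Arntl1-Ch10 (0.31 h). The samples cover 1 cycle, so a longer period and a later phase cannot be told apart.

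**Figure D4:**
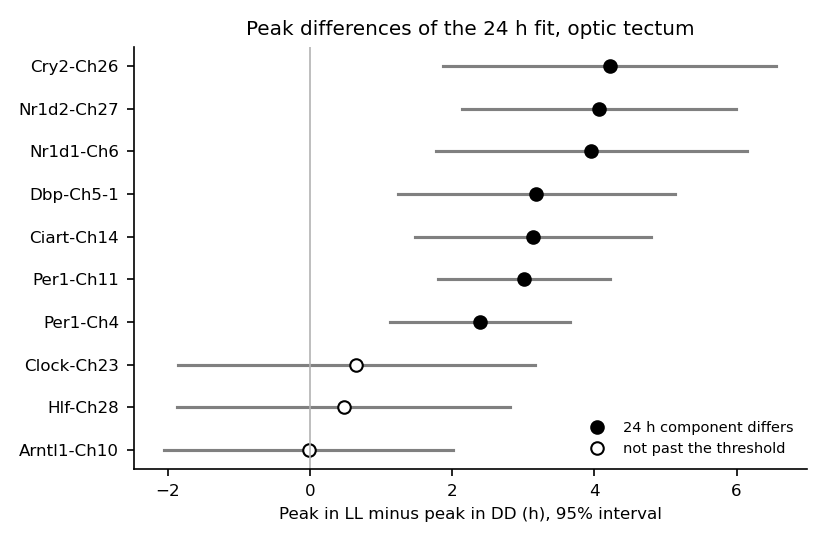
Peak time in LL minus peak time in DD in hours (horizontal axis, points with 95% intervals) of the 10 transcripts whose 24 h amplitude was at least 3 SE in both conditions, filled where the 24 h component of LL minus DD passed the test. The 7 filled points lie between 2.39 and 4.22 h, and the 3 open ones have intervals across 0.

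The amplitude was larger in LL in 17 of 41 transcripts, with medians of 0.14 in both LL and DD. Per3-Ch22 had an amplitude of 0.22 in LL and 0.06 in DD, and Per1-Ch4 had 0.57 and 0.42. The amplitude was larger in DD for Ciart-Ch14 (0.41 in LL and 0.46 in DD) and Nr1d1-Ch6 (0.27 and 0.35), among others. A difference in amplitude alone was not tested. With 3 fish a time, the SE of an amplitude was 0.04 for Per3-Ch22 and 0.05 for Per1-Ch4.

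Members of Ss4R pairs were compared through their log2 ratio in each fish, which does not depend on the scale of a sample. The ratio differed between LL and DD in 5 of 15 pairs (33.3%). Per2-Ch14 rose relative to Per2-Ch3 by 0.57 (SE 0.14, adjusted p = 0.000949), higher at 6 of 6 times. Arntl1-Ch10 rose relative to Arntl1-Ch16 by 0.32 (SE 0.03, adjusted p = 7.99e-09), also at 6 of 6 times. On the spike-in scale these copies lay on opposite sides, at 0.17 and -0.14. On the rescaled measures Arntl1-Ch10 did not pass (0.03 and 0.08), and Arntl1-Ch16 was lower in LL (-0.29 and -0.24). In the samples of CT9 to CT21 the median of the Arntl1 ratio was 0.04 for LL against -0.37 for DD, and in those of CT25 and CT29 it was 0.19 for LL against -0.14 for DD. The others were Hlf-Ch1 to Hlf-Ch28 (0.16, adjusted p = 0.0251), Clock-Ch10 to Clock-Ch23 (-0.15, adjusted p = 0.000949) and Per1-Ch11 to Per1-Ch4 (-0.13, adjusted p = 0.000167). Medians of these ratios also moved from the earlier to the later samples within a light condition. In LL and DD they moved by -0.38 and 0.15 (Per2), 0.15 and 0.24 (Arntl1), and 0.44 and 0.46 (Hlf). For Clock and Per1 the moves were 0.20 and 0.39, and 0.30 and -0.06. The part of a run in the level differences of the ratios was not tested.

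The Tef pairs did not pass. The ratio of Tef-Ch3 to Tef-Ch6 differed by -0.03 (95% interval -0.08 to 0.01) and that of Tef-Ch1 to Tef-Ch28 by -0.05 (-0.15 to 0.04), so the opposite signs among Tef genes lay between the pairs and not within them. The ratio changed with time in 3 pairs: Rora (adjusted p = 1.79e-06), Per1 (adjusted p = 7.04e-05) and Nr1d2-Ch2 with Nr1d2-Ch5 (adjusted p = 0.000174). In all 3 the difference had 1 sign at each of CT9 to CT21 and the other sign at CT25 and CT29, the sets of LL samples described above, and the part of a run in this was not tested.

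The same contrast was available in the saccus vasculosus (SV), a vascular organ of the hypothalamus, and in the gill, from the same fish except 1 of the 3 at CT17 in DD. Per2 set the OT apart from the gill, and Cry3-Ch22 differed from both tissues in the other direction. Of 39 transcripts expressed in OT and gill, 8 differed in LL minus DD (20.5%), 7 more positive in the OT. The Per2-Ch14 difference was 1.53 in the OT and 0.25 in the gill (difference 1.28, SE 0.21, adjusted p = 5.26e-06), and that of Per2-Ch3 was 0.96 and 0.32 (0.63, SE 0.19, adjusted p = 0.00981). Ciart-Ch14 (0.49), Nr1d2-Ch14 (0.37), Per1-Ch4 (0.27), Cry2-Ch10 (0.26) and Arntl1-Ch10 (0.26) were also more positive in the OT. Cry3-Ch22 was 0.61 in the OT and 1.11 in the gill (-0.50, adjusted p = 0.00981).

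Of 37 transcripts expressed in OT and SV, 6 differed (16.2%), all more negative in the OT. They were Cry3-Ch22 (0.61 in the OT, 1.28 in the SV), Tef-Ch3 (-0.41 and 0.14), Tef-Ch6 (-0.37 and 0.11), Cry2-Ch26 (0.00 and 0.46), Per3-Ch22 (-0.19 and 0.26) and Arntl1-Ch16 (-0.14 and 0.29). Within the SV itself the differences of Tef-Ch3, Tef-Ch6, Per3-Ch22 and Arntl1-Ch16 did not pass (adjusted p from 0.0933 to 0.504). Opposite directions in OT and SV were thus not shown for these. The median LL minus DD over all transcripts was 0.25 in the SV, against 0.06 in the OT and 0.06 in the gill. Values on the spike-in scale were thus shifted up in the SV, where Tef-Ch3 and Tef-Ch6 lay below that median. Per2-Ch14 was 0.95 in the SV, and its difference from the OT of 0.59 (SE 0.27) did not pass (adjusted p = 0.118). The count was 10 without A38 and 3 without any of A33, A37, A39, A43, A46, A50, B10, B14, B17, B19, B22 or B32, and Cry3-Ch22, Cry2-Ch26 and Tef-Ch3 were called in 37 of 37 such fits. The SV sample of fish A47 stood apart, with a log2 ratio of Tef-Ch3 to Tef-Ch6 of 2.62 against -0.06 to 0.57 in the other 35 SV samples, and all 6 calls held without that fish. For the gill the count moved between 6 and 10, and the 2 Per2 copies were called in 37 of 37.

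**Figure D5:**
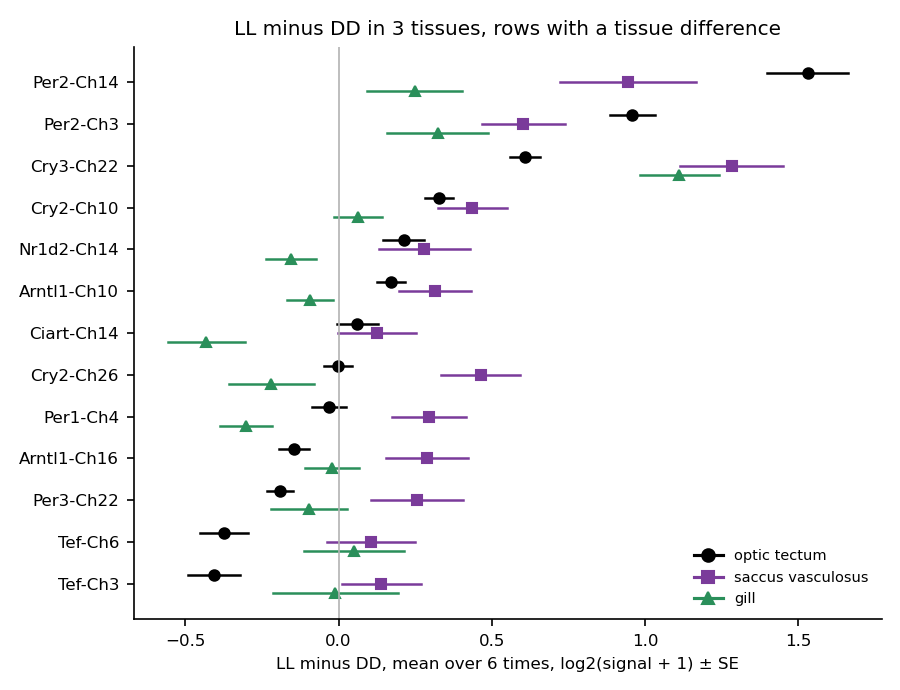
LL minus DD averaged over 6 times on the log2(signal + 1) scale (horizontal axis, points with SE bars) in the OT (circles), SV (squares) and gill (triangles), for transcripts whose difference was not the same in the OT and another tissue. Per2-Ch14 and Per2-Ch3 reach 1.53 and 0.96 in the OT against 0.25 and 0.32 in the gill, whereas Cry3-Ch22 is lowest in the OT.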

How the data were processed

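RNA of the OT, SV and gill of each fish was hybridised to a custom NanoString CodeSet. The deposited signal values are barcode counts that the authors normalised to spike-in positive controls in nSolver 4.0. A background subtraction and the hybridisation runs are not given in the sources used here. In all 36 samples the values were whole multiples of 1 step per sample (tolerance 0.0051), and totals in steps ran from 23602 to 47516 in LL and from 29937 to 50352 in DD. The table has 48 entries, of which 45 have OT values. The 41 that the study lists as expressed were tested, and 41 of 41 gene IDs were found in the RefSeq annotation of Ssal_v3.1, used for names alone. Target sequences came from the CodeSet design table of the study.

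Values were transformed as log2(signal + 1) and fitted with limma 3.58.1 in R 4.3.3, with 12 group means (light by time, 3 fish each), moderated variances and 24 residual degrees of freedom. The residual SD had a median of 0.16 (0.11 to 0.44). Tests were the mean of LL minus DD over 6 times, its change over time (F test of 5 contrasts), single times, and its 24 h component, two-sided with Benjamini-Hochberg adjustment over all rows at 0.05. Pair ratios were fitted alike, and tissues in a fit with 24 groups. A row was called shifted at all times where the level passed, the change over time did not, and all 6 differences had 1 sign. Values of single fish, or ranges, were given for the 10 transcripts of smallest p in the level test and in the time test, their partners and each Per2 row. The members and gene lists were chosen with earlier results of these data known. Each sample of a group is from a separate fish and tanks are not given per fish, so p-values measure spread between fish. The tests were tried on simulated data before use. Alternatives were another pseudocount, row filters, 2 other scalings, linear signal, variances without moderation, a fit on all 63 OT samples, leaving out each fish, permutation within times (100000 resamples) and, for the tissues, fish as a replicate block. OT, SV and gill samples carry shared fish codes in the labels, so they are paired by fish. Residuals of shared fish had a median correlation over rows of 0.10 between OT and SV (35 fish, 37 rows) and -0.01 between OT and gill (35 fish, 39 rows).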

Additional observations from a re-analysis of the deposited data

Results flagged for a closer look

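The difference between LL and DD was not the same at all times, by a test of that change, in 13 transcripts. The adjusted p was 0.0251 for Per1-Ch11 and Cry2-Ch26, 0.0252 for Per1-Ch4, Per3-Ch22 and Nr1d2-Ch27, 0.0341 for Nr1d2-Ch14, 0.0354 for Ciart-Ch14, Nr1d1-Ch6 and Nr1d2-Ch5, 0.0397 for Dbp-Ch5-1, Nr1d2-Ch2 and Per2-Ch3, and 0.0417 for Cry3-Ch12.

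LL minus DD differed between tissues, by a test of the difference itself, in 6 transcripts for OT minus SV. These differences were -0.433 for Arntl1-Ch16, -0.675 for Cry3-Ch22, -0.465 for Cry2-Ch26, -0.447 for Per3-Ch22, -0.545 for Tef-Ch3 and -0.479 for Tef-Ch6. For OT minus gill it differed in 8 transcripts, by 1.28 for Per2-Ch14, 0.634 for Per2-Ch3, 0.493 for Ciart-Ch14, 0.367 for Nr1d2-Ch14, 0.272 for Per1-Ch4, 0.265 for Cry2-Ch10, 0.264 for Arntl1-Ch10 and -0.504 for Cry3-Ch22.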

How the results depend on the processing

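The count of level differences (23 of 41) lay between 20 and 28 under the other settings applied to all 6 times and between 20 and 23 without single fish, and was 15 within CT25 and CT29 alone. The count that changed with time (13) was 6 with all 45 rows, 5 without moderation, 4 with all 63 samples, and 0 to 15 without single fish. Single-time calls (52) rose to 86 on the geometric mean scale and ran from 38 to 59 without single fish. The 24 h component (12) was called in 7 with a step between CT21 and CT25. On the geometric mean scale the level of Clock-Ch23 reversed to -0.0184. The OT and SV count (6) ran from 3 to 10 without single fish. Counts for pair ratios (5), for ratios that changed with time (3), for OT and gill (8) and for rows shifted at all times (10) stayed within 1.5 times of these in every alternative run. The members of the last class were less stable than its count. Of the 10, 3 were also in it on the geometric mean scale, where most of its members were lower in LL. With fish as a replicate block the tissue counts were 6 and 8, and it changed no call. Within the light comparison no paired analysis was possible because LL and DD fish share no replicate codes. A count test on recovered whole counts was not run, because 45 values per sample are too few to check the recovery. With 3 fish per group, an exact permutation test of 1 time cannot go below p = 0.1.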

Other observations

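CKId-Ch1, a casein kinase entry that the study does not list among the expressed OT rows, was lower in LL at 6 of 6 times, with a level difference of -0.32 (SE 0.06, adjusted p = 9.94e-05 in the limma fit of all 45 rows). Its signal ran from 269 to 421 (median 328) in the LL fish and from 341 to 528 (median 398) in the DD fish, ranges that overlapped. At CT13 it was 289, 305 and 298 in LL and 460.1, 443 and 372 in DD, with no overlap. The CodeSet design table has an entry named CKIe-Ch1 and none named CKId-Ch1, so which gene this row measures is not settled. Of the other entries outside the test, Per2-Ch20 (0.07) and Nr1d1-Ch3 (-0.12) did not pass. Both lay close to the lowest value of the data, 1. Per2-Ch20 signal ran from 2.66 to 12.6 in LL and from 1.73 to 7.63 in DD. Nr1d1-Ch3 signal ran from 1 to 9.8 in LL and from 1.04 to 11.7 in DD. At such low signal a missed call does not show that light had no effect.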
